A study of Mus musculus with 9 samples.

Results

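The 10 genes described here (Dazl, Ddx4, Mael, Sycp1, Sycp3, Hormad1, Stk31, Asz1, Dppa3 and Prdm1) belong to the programme of germ cells and meiosis. They were taken by name from a table of 29069 genes. Tests covered the 18156 genes whose normalised count averaged more than 5 across the 9 libraries, and all 10 members were among them. Gene positions given below are those of the GENCODE M21 annotation of GRCm38.

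Total RNA was sequenced from D3 cells, a single established line of mouse embryonic stem cells (mESC) maintained without feeders. Cells were kept for 24 h in 1 of 3 media, with 3 replicate libraries per medium. Ground-state medium (GS) combined N2B27 with the MEK inhibitor PD0325901 (1 μM), the GSK-3 inhibitor CHIR99021 (3 μM) and LIF (20 ng/mL). Differentiation medium (DM) was DMEM with 10% FBS and no inhibitor, and NO medium was DM to which 250 μM of DETA/NO, a donor of nitric oxide, had been added. Thus DM vs GS changes the medium as a whole, NO vs DM adds the donor alone, and NO vs GS holds both changes. By the study's methods RNA came from a dish for each sample, and independent experiments are stated for the study's values in general. The labels do not say it of these libraries, and the p-values measure the spread between them, part of which may be technical.

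Germ cells are set apart in the early embryo by a small group of transcription factors and then switch on genes for germ granules, for silencing of transposons by small piRNAs, and for the pairing of chromosomes in meiosis. In embryonic stem cells most of these genes are held at a low level by DNA methylation and by PRC1.6, a Polycomb complex whose Mga/Max and E2f6 subunits recognise E-box and E2F sequences in their promoters. A few, among them Dppa3, are instead part of the naive state itself.

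Promoter windows are given first. RefSeq windows from 250 bases before to 50 bases after the transcription start (GRCm38.p6) were found for 9 of the 10 members, all but Dppa3. Both strands were searched for the E-box CACGTG, which reads the same on both, and for the E2F6 motif TCCCGC with its reverse complement GCGGGA, and no match to one overlapped a match to the other in these windows. An E-box was found in 6 of 9 members (66.7%), against 7.2% of all 32851 windows. The E2F6 motif was found in 5 of 9 (55.6%), against 20.0% of all windows. Both motifs stood together in 5 of 9 (55.6%), namely Ddx4, Mael, Sycp1, Sycp3 and Hormad1, against 2.0% of all windows. The members' windows were also rich in CpG, with a median of 24 CpG against 7 over all windows. Among the 9514 genes whose first window held at least 15 CpG, the lowest number in a member, 11.5% had an E-box, 45.2% the E2F6 motif and 5.1% both. In the windows of the other germline lists described further on, an E-box was found in 35% of 20 piRNA pathway genes and 25.6% of 39 meiotic genes, the E2F6 motif in 25% and 48.7%, and both in 5.0% and 15.4%. For 8 primordial germ cell, 13 oocyte and 16 late spermatid genes the E-box shares were 0.0%, 15.4% and 0.0%. The E2F6 shares were 37.5%, 15.4% and 6.2%, and both motifs stood together in 0.0%, 7.7% and 0.0%. The windows of 5 members are shown because they span the contrasts in the RNA data, namely Hormad1 and Ddx4 (both motifs, higher in NO than in DM), Mael (both motifs, higher in both serum media than in GS), Sycp1 (both motifs, no call) and Dazl (neither motif, higher in NO than in DM). Capitals mark the E-box and E2F6 matches.
Hormad1, chr3:95559427-95559726, plus strand: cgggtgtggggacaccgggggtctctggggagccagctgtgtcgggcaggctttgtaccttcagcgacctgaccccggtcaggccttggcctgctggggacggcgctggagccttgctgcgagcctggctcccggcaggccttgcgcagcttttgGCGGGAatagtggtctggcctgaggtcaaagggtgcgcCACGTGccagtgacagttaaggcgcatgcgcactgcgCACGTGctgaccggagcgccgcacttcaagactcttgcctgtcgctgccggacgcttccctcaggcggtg
Ddx4, chr13:112652261-112652560, minus strand: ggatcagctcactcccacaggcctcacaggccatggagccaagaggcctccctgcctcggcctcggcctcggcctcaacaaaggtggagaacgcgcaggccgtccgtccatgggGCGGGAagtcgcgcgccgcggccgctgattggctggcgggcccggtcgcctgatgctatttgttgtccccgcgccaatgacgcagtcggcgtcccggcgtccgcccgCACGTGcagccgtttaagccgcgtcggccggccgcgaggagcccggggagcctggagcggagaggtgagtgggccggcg
Mael, chr1:166238695-166238994, minus strand: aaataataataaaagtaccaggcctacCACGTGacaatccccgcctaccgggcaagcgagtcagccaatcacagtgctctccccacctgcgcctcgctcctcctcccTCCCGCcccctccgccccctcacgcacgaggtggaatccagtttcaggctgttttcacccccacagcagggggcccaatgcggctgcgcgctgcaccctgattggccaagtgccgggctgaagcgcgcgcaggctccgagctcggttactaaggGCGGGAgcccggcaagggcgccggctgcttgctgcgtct
Sycp1, chr3:102936051-102936350, minus strand: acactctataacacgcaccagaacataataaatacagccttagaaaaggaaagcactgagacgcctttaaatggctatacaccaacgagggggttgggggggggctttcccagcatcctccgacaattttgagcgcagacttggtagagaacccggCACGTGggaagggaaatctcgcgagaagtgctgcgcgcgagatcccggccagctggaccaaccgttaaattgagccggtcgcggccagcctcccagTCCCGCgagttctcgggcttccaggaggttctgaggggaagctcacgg
Dazl, chr17:50293571-50293870, minus strand: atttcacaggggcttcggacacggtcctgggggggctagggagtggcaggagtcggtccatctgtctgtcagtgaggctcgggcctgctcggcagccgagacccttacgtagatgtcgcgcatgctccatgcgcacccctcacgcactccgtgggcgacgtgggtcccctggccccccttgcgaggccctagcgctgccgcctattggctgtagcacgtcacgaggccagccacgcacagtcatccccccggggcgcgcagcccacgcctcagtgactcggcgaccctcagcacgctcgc

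The Hormad1 window, the first of 2 listed for the gene, held E-boxes 57 and 20 bases before the start and an E2F6 match 95 bases before it. In Ddx4 the E-box lay 29 bases and the E2F6 match 136 bases before the start. That RefSeq start lies 165 bases downstream of the one in GENCODE M21, so both matches fall inside the gene as annotated there. Mael carried its E-box 223 bases before the start and E2F6 matches 143 bases before and 12 bases after it. In Sycp1 the E-box lay 94 bases before and the E2F6 match 3 bases after the start. Sycp3 held E-boxes 64 and 43 bases before the start and an E2F6 match 147 bases before it, while Stk31 had an E-box alone, 120 bases before its start. The windows of Dazl, Asz1 and Prdm1 held neither motif, although that of Prdm1 is drawn on a start 69753 bases from the one in the GENCODE M21 annotation. A match is only a run of letters, and binding was not measured.

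**Figure D1:**
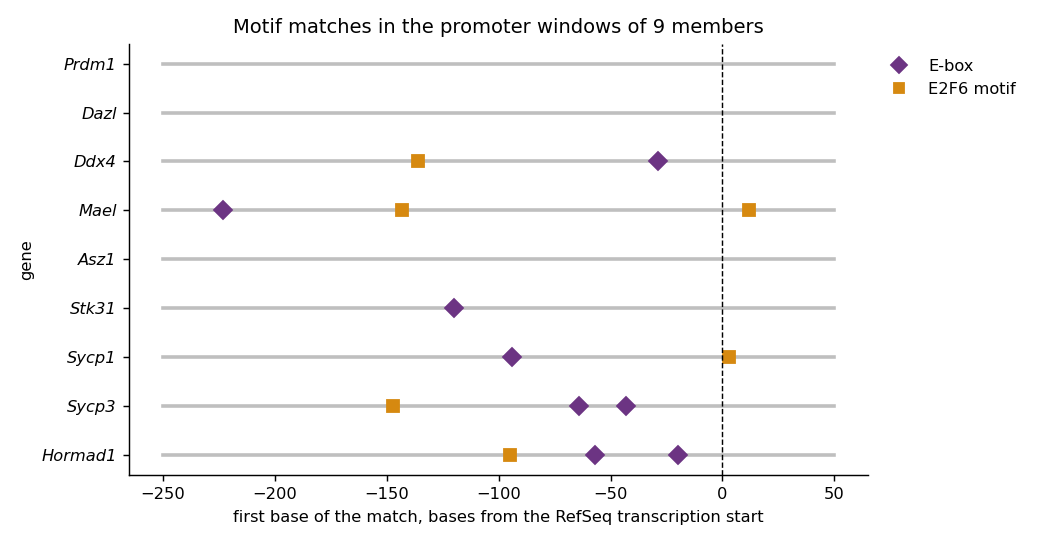
Matches to the E-box (purple diamonds) and to the E2F6 motif (orange squares) in the promoter windows of 9 members, plotted by the distance of their first base from the RefSeq transcription start in bases (dashed line). Of the 9 windows, 6 hold an E-box, 5 of them together with an E2F6 match, and the windows of Prdm1, Dazl and Asz1 are empty.

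Normalised totals per library lay between 18290445 and 20508679, and the depth estimated from the spacing of low values was 14312996 to 27090075 assigned reads. One read was worth 0.7 to 1.32 normalised counts, so that a floor of 3 reads corresponds to 2.10 to 3.97 normalised counts, counting error alone considered. NO replicate 2 stood apart from the other libraries. On the first principal component, which held 50.3% of the variance, it scored 131, against 25.9 and 67.1 for the other NO libraries and -49.1 to -26.0 for GS and DM. Pluripotency markers, 12 of 12 detected, summed to 127029 to 131791 normalised counts in the GS libraries, 109557 to 114799 in DM and 70368 to 110927 in NO, the lowest sum being that of NO replicate 2. Values without this library are given beside a part of the results for which it held the most extreme value.

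All 10 members were detected, at low to middling levels. Their mean over the 9 libraries ranged from 8.89 normalised counts for Sycp3 to 281 for Prdm1, which lies above 52.6% of the tested genes. Per kilobase of exon, Dppa3 ranked first in GS (241 ± 54.3 normalised counts per kb, SD, n = 3), followed by Stk31 (72.7 ± 11.2), Hormad1 (63.4 ± 21.7), Prdm1 (54.5 ± 11), Dazl (49.5 ± 11) and Sycp1 (49.3 ± 8.46). From Stk31 to Sycp1 each gene lay within 1 SD of the next, and Ddx4 (21.7 ± 8.56), Mael (14.4 ± 5.77), Sycp3 (5.01 ± 1.99) and Asz1 (1.06 ± 0.353) followed below them. In DM the order was led by Stk31 (74.0 ± 8.55), Dppa3 (63.9 ± 23.5) and Prdm1 (55.2 ± 10.2), each within 1 SD of the next. In NO, Hormad1 ranked first (165 ± 72.4), ahead of Stk31 (89.2 ± 9.52), with 1 SD of Hormad1 nearly reaching down to Stk31, and Dppa3 stood in rank 8 (31 ± 21.5).

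**Figure D2:**
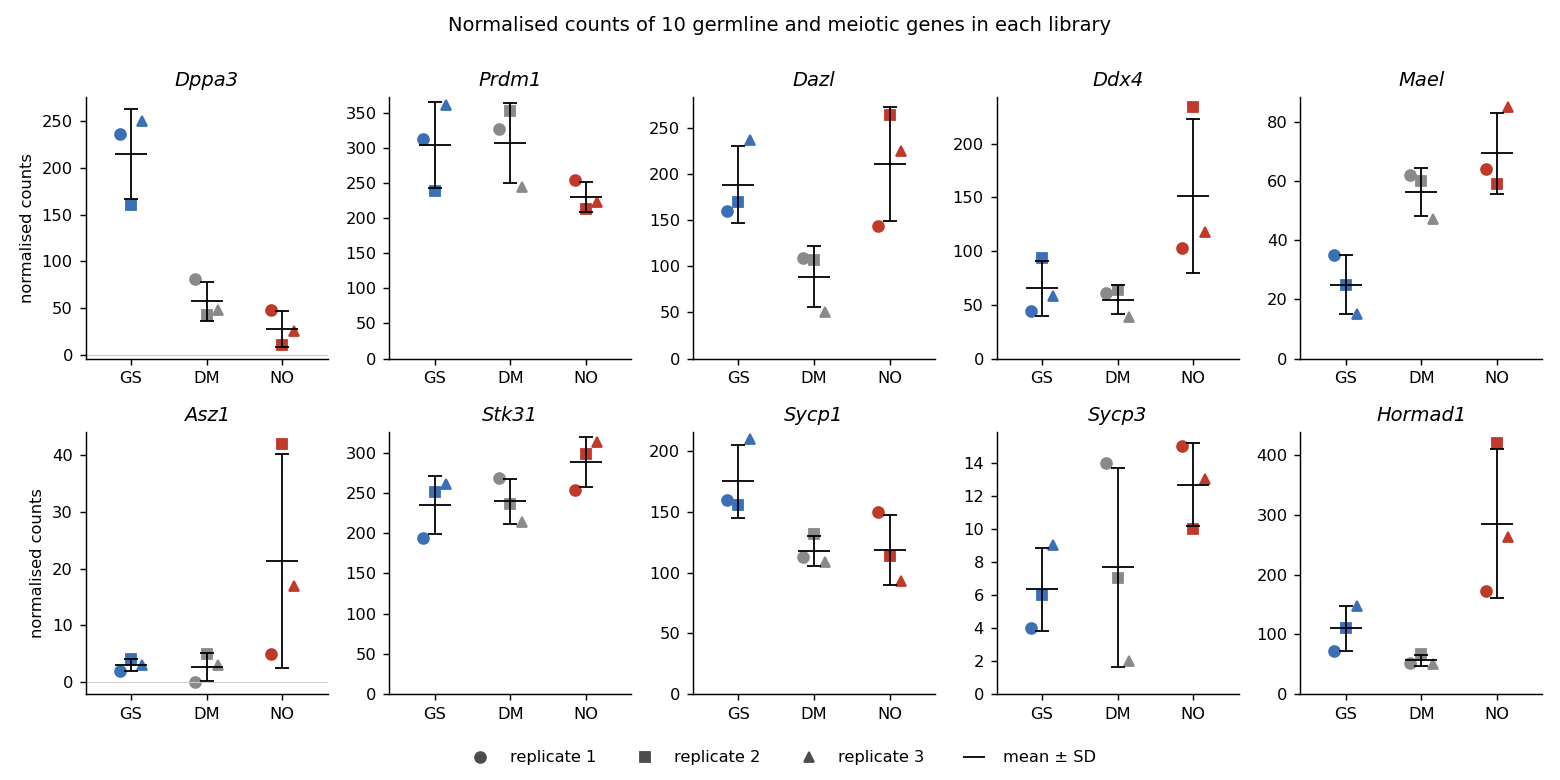
Normalised counts of the 10 members (vertical axis, linear, starting at or just below 0) in GS, DM and NO, with 1 point per library, a shape for each replicate number, and bars for the mean ± SD of 3 replicates. The NO libraries of Hormad1 (173 to 420) and Ddx4 (103 to 234) lie above all GS and DM libraries, and the GS libraries of Dppa3 (160 to 250) lie above all others.

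Calls required a Benjamini-Hochberg adjusted p-value under 0.05 over all tested genes and a log2 fold change of at least 1 in either direction, from limma on log2(normalised count + 1), a scale that understates changes of low genes. The 3 comparisons share libraries in pairs and are not independent of each other. Of the members, DM vs GS showed 1 called higher (Mael) and 1 lower (Dppa3), where 2.94% of all tested genes were called higher and 1.27% lower. In NO vs GS, 3 members were called higher (Ddx4, Mael and Hormad1) and 1 lower (Dppa3), against 10.1% and 1.64% of all genes. In NO vs DM, 3 members were called higher (Dazl, Ddx4 and Hormad1) and none lower, against 6.78% and 1.77%, with 1 member (Dppa3) lower at an unadjusted p under 0.05 by limma. The moderated F test over the 3 media had an adjusted p-value under 0.05 for 5 of 10 members (Dazl, Ddx4, Mael, Hormad1 and Dppa3), against 23.3% of all genes. The median log2 fold change of the members was -0.33 (DM vs GS), 0.62 (NO vs GS) and 0.61 (NO vs DM), beside medians of -0.00068, -0.016 and 0.0010 over all tested genes. Without NO replicate 2 the members called fell from 4 to 2 for NO vs GS and from 3 to 1 for NO vs DM. Calls over all tested genes were not counted without this library, so it cannot be told whether the members lost more calls than other genes. After quantile normalisation the split of calls over all tested genes moved from 1830 higher and 297 lower to 1304 and 629 for NO vs GS, and from 1231 and 321 to 959 and 514 for NO vs DM, and members called were 0 higher and 1 lower for DM vs GS, 1 and 1 for NO vs GS, and 2 and 0 for NO vs DM.

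**Figure D3:**
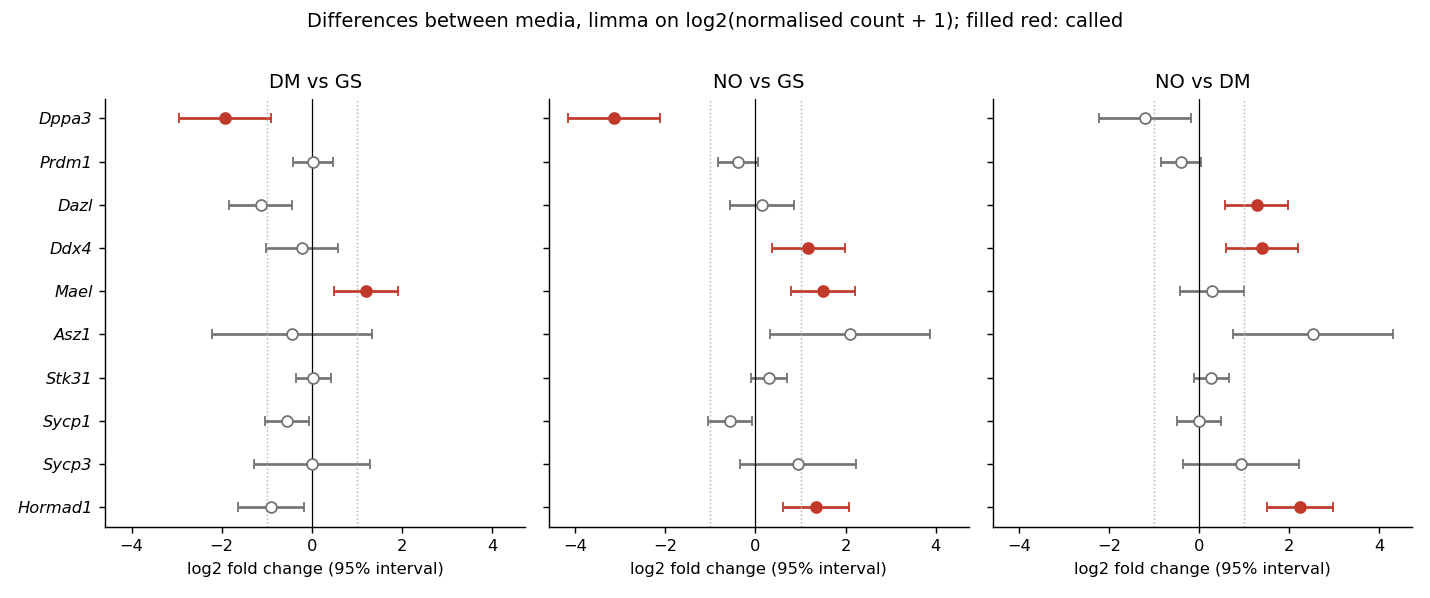
Log2 fold change of each member in the 3 comparisons, from limma on log2(normalised count + 1), with 95% confidence intervals and dotted lines at a log2 fold change of 1 in either direction. Filled red points were called (2 in the left panel, 4 in the middle panel and 3 in the right panel) and open points were not.

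Among the factors of germ cell specification, Dppa3 fell when cells left GS while Prdm1 gave no call. Dppa3 (chr6:122626410-122630272), a maternal protein that protects methylated DNA from demethylation and marks both primordial germ cells and naive stem cells, was measured at 236, 160 and 250 normalised counts in GS replicates 1 to 3. The DM libraries held 81, 42 and 48, and the NO libraries 48, 10 and 25. All GS values lay above all DM and NO values, while DM and NO overlapped. Dppa3 was 3.81-fold lower in DM than in GS (log2 fold change -1.93 ± 0.47, SE, adjusted p = 0.0303, limma) and 8.81-fold lower in NO than in GS (-3.14 ± 0.47, adjusted p = 0.00136). The call in NO vs GS held under all 20 alternatives run, with adjusted p-values from 0.000137 to 0.0101. That in DM vs GS was lost on leaving out GS replicate 1, 2 or 3 or DM replicate 2 or 3 (adjusted p from 0.0627 to 0.131). Dppa3 in NO vs DM differed by -1.21 ± 0.47 on the log2 scale and was not called (adjusted p = 0.103). Without NO replicate 2, the lowest library, that difference was -0.64 (adjusted p = 0.322). It was called with the replicate number as a block (adjusted p = 0.0398) and without NO replicate 1 (-1.72, adjusted p = 0.0111), and over all alternatives it ranged from -1.72 to -0.64. In bulk RNA, fewer cells that express a gene and less RNA per cell cannot be told apart.

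Prdm1 (Blimp1, chr10:44437177-44528501), the repressor that founds the germ cell lineage, was measured at 313, 239 and 361 normalised counts in GS, at 327, 353 and 244 in DM, and at 254, 213 and 224 in NO. The 3 media overlapped, with the NO values toward the low end. The log2 fold change was 0.02 in DM vs GS (95% interval -0.42 to 0.46), -0.38 in NO vs GS (-0.82 to 0.06) and -0.40 in NO vs DM (-0.84 to 0.04), and none was called (adjusted p = 0.974, 0.199 and 0.195, limma). These intervals leave out a change of 1 on the log2 scale in either direction.

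The RNA-binding proteins of germ cells were both higher in NO than in DM. Dazl (chr17:50279395-50293636), which controls translation of germ cell transcripts, was measured at 160, 170 and 237 normalised counts in GS. It stood at 109, 107 and 51 in DM and at 144, 265 and 226 in NO. The DM libraries were the lowest of the series, below all GS and all NO libraries, and GS and NO overlapped. Dazl was 2.42-fold higher in NO than in DM (log2 fold change 1.28 ± 0.32, SE, adjusted p = 0.0248, limma) and did not differ detectably between NO and GS (0.14, 95% interval -0.57 to 0.84, adjusted p = 0.797). In DM vs GS the difference of -1.14 ± 0.32 missed the threshold (adjusted p = 0.0603), and it passed without NO replicate 1 or NO replicate 2 (adjusted p = 0.0351 and 0.0344) and with only the 6 libraries compared (0.0401). The call in NO vs DM was lost without DM replicate 3 (adjusted p = 0.0673), NO replicate 2 (0.0793) or NO replicate 3 (0.0777).

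Ddx4 (Vasa, chr13:112598333-112652475), the RNA helicase of germ granules, was measured at 44, 94 and 58 normalised counts in GS. The DM libraries held 61, 64 and 39 and the NO libraries 103, 234 and 118. All NO values lay above all others, that of NO replicate 2 farthest, and GS and DM overlapped. Ddx4 was 2.26-fold higher in NO than in GS (log2 fold change 1.18 ± 0.37, adjusted p = 0.0428, limma) and 2.62-fold higher in NO than in DM (1.39 ± 0.37, adjusted p = 0.0291). DM vs GS gave -0.22 (95% interval -1.02 to 0.59, adjusted p = 0.802). Without NO replicate 2 the differences were 0.82 (adjusted p = 0.141) and 1.03 (adjusted p = 0.0935), and quantile normalisation also ended both calls (adjusted p = 0.134 and 0.0579). The call in NO vs GS was also lost without GS replicate 1 or 3, DM replicate 1 or 2, or NO replicate 3 (adjusted p from 0.0581 to 0.147), and that in NO vs DM without DM replicate 1, 2 or 3 or NO replicate 3 (0.0573 to 0.0892).

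Of the 3 genes of the piRNA pathway and germ granules, Mael was called in both comparisons with GS, and Asz1 and Stk31 in none. Mael (Maelstrom, chr1:166201201-166238747), which acts in transposon silencing, was measured at 35, 25 and 15 normalised counts in GS. It stood at 62, 60 and 47 in DM and at 64, 59 and 85 in NO. All DM and NO values lay above all GS values, and DM and NO overlapped. Mael was higher in both serum media than in GS, 2.31-fold in DM vs GS (log2 fold change 1.21 ± 0.33, adjusted p = 0.0480, limma) and 2.82-fold in NO vs GS (1.5 ± 0.33, adjusted p = 0.00872). NO vs DM differed by 0.29 (95% interval -0.43 to 1.00, adjusted p = 0.587). The call in DM vs GS stood close to the threshold and was lost without GS replicate 2 or 3, DM replicate 1, 2 or 3, or NO replicate 3 (adjusted p from 0.0685 to 0.182), whereas that in NO vs GS was kept in 18 of 20 alternatives, the exceptions being a minimum log2 fold change of 2 and quantile normalisation (adjusted p = 0.057).

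Asz1 (chr6:18050964-18109061), a mitochondria-associated protein needed for piRNA production, was measured at 2, 4 and 3 normalised counts in GS and at 0, 5 and 3 in DM, values at or near the floor of 3 reads. In NO it stood at 5, 42 and 17. NO replicates 2 and 3 lay above all GS and DM libraries, while NO replicate 1 equalled DM replicate 2. The log2 difference was 2.09 ± 0.81 in NO vs GS (adjusted p = 0.0905, limma) and 2.53 ± 0.81 in NO vs DM (adjusted p = 0.0578), and neither was called. With the replicate number as a block the difference was called in NO vs DM (adjusted p = 0.0213), which brought the members called there from 3 to 5. With its highest library, NO replicate 2, left out, the mean of Asz1 over the other 8 libraries was 4.88, under the minimum of 5, and the gene was not tested. Without NO replicate 1 it was called in both (adjusted p = 0.0220 against GS and 0.0130 against DM), and without NO replicate 3 in neither (0.189 and 0.133).

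Stk31 (chr6:49395604-49469501), a germ cell protein with tudor and kinase domains, was measured at 194, 251 and 261 normalised counts in GS. The DM libraries held 269, 236 and 214 and the NO libraries 254, 299 and 313. The media overlapped, with 2 NO libraries above all others. Its log2 fold change was 0.03 in DM vs GS (95% interval -0.36 to 0.42), 0.30 in NO vs GS (-0.09 to 0.69) and 0.27 in NO vs DM (-0.12 to 0.66), with adjusted p-values of 0.95, 0.259 and 0.333.

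Of the 3 proteins of the meiotic chromosome axis and synaptonemal complex, Hormad1 was called higher in NO than in either other medium, and Sycp1 and Sycp3 were not called. Hormad1 (chr3:95559677-95587671), the HORMA-domain protein that coats unsynapsed chromosome axes, was measured at 72, 110 and 147 normalised counts in GS. The DM libraries held 52, 67 and 50 and the NO libraries 173, 420 and 262. All NO values lay above all GS values, and all DM values below them. Hormad1 was 4.71-fold higher in NO than in DM (log2 fold change 2.24 ± 0.34, adjusted p = 0.00324, limma) and 2.52-fold higher in NO than in GS (1.34 ± 0.34, adjusted p = 0.0170). DM vs GS gave -0.90 ± 0.34 and was not called (adjusted p = 0.152). The call in NO vs DM held under all 20 alternatives, with adjusted p-values from 0.000418 to 0.0194, those without NO replicate 2 among them. The call in NO vs GS was lost without GS replicate 1 (adjusted p = 0.0704), GS replicate 2 (0.0505), NO replicate 2 (0.0532) or NO replicate 3 (0.0503).

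Sycp1 (chr3:102818499-102936100), the transverse filament that joins paired chromosomes, was measured at 160, 156 and 210 normalised counts in GS. The DM libraries held 113, 132 and 109 and the NO libraries 150, 114 and 93. All GS values lay above all DM and all NO values, and DM and NO overlapped. The log2 difference was -0.56 ± 0.22 in DM vs GS (adjusted p = 0.182, limma) and -0.57 ± 0.22 in NO vs GS (adjusted p = 0.0936), and neither was called. NO vs DM gave -0.01 (95% interval -0.50 to 0.48, adjusted p = 0.982), which leaves out a change of 1 on the log2 scale in either direction.

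Sycp3 (chr10:88459569-88473236, plus strand), of the axial elements, was near the floor, at 4, 6 and 9 normalised counts in GS, at 14, 7 and 2 in DM, and at 15, 10 and 13 in NO. The NO libraries lay above all GS libraries, and DM spanned nearly the whole range. No difference was called, with log2 fold changes of 0.01 (DM vs GS), 0.94 (NO vs GS) and 0.92 (NO vs DM) and adjusted p-values of 0.995, 0.283 and 0.310 by limma. Sycp3 is also the one member whose exons overlap another gene, Chpt1 on the opposite strand, along 660 of its 1264 exonic bases. Use of strand in the counting was not stated, so its values are uncertain.

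**Figure D4:**
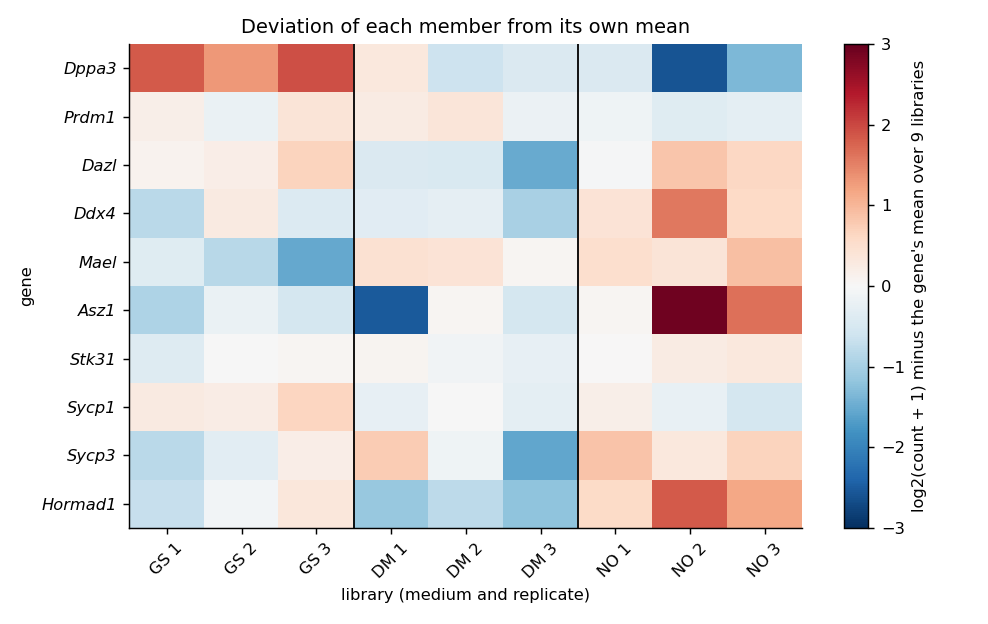
Deviation of log2(normalised count + 1) of each member from its own mean over the 9 libraries, in columns by medium and replicate (red above the mean, blue below, scale from -3 to 3). NO replicate 2 holds the highest value of Dazl, Ddx4, Asz1 and Hormad1 and the lowest of Dppa3.

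Across the 9 libraries, log2 values of Hormad1 rose and fell with those of Ddx4 (Pearson r = 0.89), Asz1 (0.86) and Dazl (0.81). Mael ran against Sycp1 (-0.85) and Dppa3 (-0.78). These are descriptions over libraries that fall into 3 media, and without NO replicate 2 they were 0.80, 0.74 and 0.77 for Hormad1 and -0.84 and -0.88 for Mael, in the same order. For the 5 members that differed among media, the 3 protein-coding genes with the most similar pattern over the 9 libraries were also listed. For Hormad1 they were Ccng1, which encodes cyclin G1 (r = 0.98), Fam189a1 (0.98) and Slc5a8 (0.98), for Ddx4 they were Frrs1 (0.99), Rgs6 (0.98) and AI481877 (0.98), and for Dazl they were B3gnt6 (0.98), Map3k7 (0.97) and Syt14 (0.97). AI481877 is Shoc1, one of the meiotic genes described further on. Rgs6, at 0 to 5 normalised counts in GS and DM and 6, 42 and 9 in NO, passed the minimum mean only through NO replicate 2. Each was picked as the highest r among all protein-coding tested genes, with no test. Mael was most like Nat8l (0.97), Lrrc48 (0.96) and Larp1b (0.95), and Dppa3 most like Slc39a1 (0.99), Mpp6 (0.98) and Rsrc1 (0.98). Ccng1 stood at 4815, 4784 and 3676 normalised counts in DM and at 8339, 15078 and 11496 in NO, a far more abundant gene with the same order of libraries in NO as Hormad1.

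Other germline genes were taken from lists of the piRNA pathway, meiosis, primordial germ cells, oocytes and late spermatids, 91 of 124 genes being tested. DM vs GS had 1 called higher and 3 lower, with a median log2 fold change of 0.14. NO vs GS had 17 higher and 4 lower (median 0.37), and NO vs DM 17 higher and 2 lower (median 0.23). Of all tested genes 10.1% were called higher and 1.64% lower in NO vs GS, and 6.78% and 1.77% in NO vs DM. The higher calls made up 81% of calls in these germline genes and 86% over all tested genes in NO vs GS. In NO vs DM they made up 89.5% and 79.3%. The split of the germline genes depended on the scaling in NO vs GS, with 24 higher and 2 lower after scaling to equal totals and 12 higher and 8 lower after quantile normalisation, which also left 0 higher and 3 lower in DM vs GS. Leaving out NO replicate 2 brought the genes called from 21 to 12 in NO vs GS and from 19 to 10 in NO vs DM, leaving out NO replicate 1 brought them to 35 and 29, and leaving out GS replicate 3 brought NO vs GS to 13.

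Among 23 tested genes of the piRNA pathway, none was called in DM vs GS (7 had an unadjusted p under 0.05 by limma), 6 were called higher and 1 lower in NO vs GS, and 7 higher and 1 lower in NO vs DM. The shares of all tested genes were 10.1% higher and 1.64% lower in NO vs GS, and 6.78% and 1.77% in NO vs DM. Without NO replicate 2, 22 were tested, with 5 higher and 0 lower in each comparison with NO. The gene that dropped out passed the minimum mean only through that library. Piwil4, at 0 to 6 normalised counts in GS and DM, and Tdrd1, at 1 to 4, passed it only through the NO libraries. Both were called higher in NO vs GS with and without NO replicate 2, so these counts are partly set by the filter. Piwil2, a PIWI protein that binds piRNAs, was measured at 118, 110 and 107 normalised counts in GS, at 194, 173 and 197 in DM, and at 348, 667 and 573 in NO. The 3 media did not overlap. Piwil2 rose by a log2 fold change of 2.18 in NO vs GS (adjusted p = 0.00042, limma) and 1.44 in NO vs DM (adjusted p = 0.00379). Tdrd9, a tudor-domain helicase, stood at 11 to 20 in GS, 13 to 32 in DM and 53, 256 and 124 in NO, a log2 fold change of 2.47 in NO vs DM (adjusted p = 0.0121). Without NO replicate 2 these values in NO vs DM were 1.25 for Piwil2 (adjusted p = 0.00643) and 1.92 for Tdrd9 (0.0318), both still called. Tex14, of germ cell intercellular bridges, stood at 375 to 447 in GS and 734 to 763 in NO, and its change of 0.87 in NO vs GS stayed under the fold threshold (adjusted p = 0.00326).

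Of 39 tested meiotic genes, 1 was called higher in DM vs GS, 11 higher and 1 lower in NO vs GS, and 8 higher in NO vs DM. The shares of all tested genes called higher were 2.94%, 10.1% and 6.78% in the same order, and 1.64% were called lower in NO vs GS. Without NO replicate 2, 38 were tested, with 5 higher in NO vs GS, 4 higher in NO vs DM and 0 lower in both. Here too the gene that dropped out passed the minimum mean only through that library. Taf7l, a germ cell subunit of the transcription machinery, was at 3 to 8 normalised counts in GS and DM and at 53, 321 and 115 in NO, with a log2 fold change of 4.48 in NO vs DM (adjusted p = 0.00212, limma). Tex19.1 stood at 468, 721 and 602 in GS, at 631, 458 and 457 in DM and at 1080, 2121 and 1709 in NO, with a log2 fold change of 1.63 in NO vs DM (adjusted p = 0.0034). Meioc, needed for entry into meiotic prophase and listed as Gm1564, stood at 132 to 165 in GS, 133 to 177 in DM and 272 to 399 in NO. Its change was called in NO vs GS (1.11, adjusted p = 0.00391) and fell just short of the fold threshold in NO vs DM (0.98, adjusted p = 0.0115). In each of these genes, as in Hormad1 and Ddx4, NO replicate 2 was the highest library. Without it the differences in NO vs DM were 3.81 for Taf7l (adjusted p = 0.00205) and 1.41 for Tex19.1 (0.0054), both still called, while Meioc in NO vs GS fell under the fold threshold (0.93, adjusted p = 0.0088).

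Of 15 tested genes of primordial germ cells, 3 were called lower in DM vs GS, 2 lower in NO vs GS, and 2 higher and 1 lower in NO vs DM. The shares of all tested genes were 1.27% lower in DM vs GS, 1.64% lower in NO vs GS, and 6.78% higher and 1.77% lower in NO vs DM. Kit, the receptor of migrating germ cells, fell in DM vs GS (log2 fold change -1.72, adjusted p = 0.000219, limma). The GS libraries held 6239 to 6247 normalised counts and the DM libraries 1682 to 2011. Kit stood at 1458 to 2439 in NO, which did not differ detectably from DM (0.03, adjusted p = 0.914). Tfap2c, a specification factor that acts with Prdm1 and is also a trophoblast gene, stood at 326, 262 and 275 in GS, 34, 41 and 52 in DM and 144, 426 and 186 in NO. It fell in DM vs GS (-2.75, adjusted p = 0.000694) and rose in NO vs DM (2.41, adjusted p = 0.00286). T (Brachyury) stood at 131 to 183 in GS, 0 to 10 in DM and 8 to 28 in NO, and was called lower than in GS both in DM (adjusted p = 0.000882) and in NO (adjusted p = 0.0151) and higher in NO vs DM (adjusted p = 0.0342). Without NO replicate 2 the rise of Tfap2c in NO vs DM was still called (1.95, adjusted p = 0.001) and that of T was not (2.36, adjusted p = 0.11).

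None of 7 tested oocyte genes and none of 7 tested late spermatid genes was called by limma in any comparison. With 7 genes in each list and 10.1% of all tested genes called higher in NO vs GS, the lack of calls does not set these lists apart. At an unadjusted p under 0.05 there were 0, 1 and 2 oocyte genes and 2, 1 and 0 spermatid genes, for DM vs GS, NO vs GS and NO vs DM in turn. Acrv1, Zpbp and Tssk2 were the spermatid genes with the smallest adjusted p-values (0.109, 0.149 and 0.205 in NO vs GS), at 19 normalised counts or less in every library. Prm1, Prm2, Tnp1 and Tnp2, the packaging proteins of sperm DNA, were among 10 of the 19 listed spermatid genes with 9 normalised counts or fewer over all libraries together. Tcl1, Nlrp14 and Zp3 led the oocyte list. Tcl1 stood at 1545 to 1857 in GS, 1993 to 2564 in DM and 1590, 445 and 1403 in NO, and was not called in NO vs DM (-1.13, adjusted p = 0.061, limma). Without NO replicate 2, its lowest library, the difference was -0.55 (adjusted p = 0.0512).

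**Figure D5:**
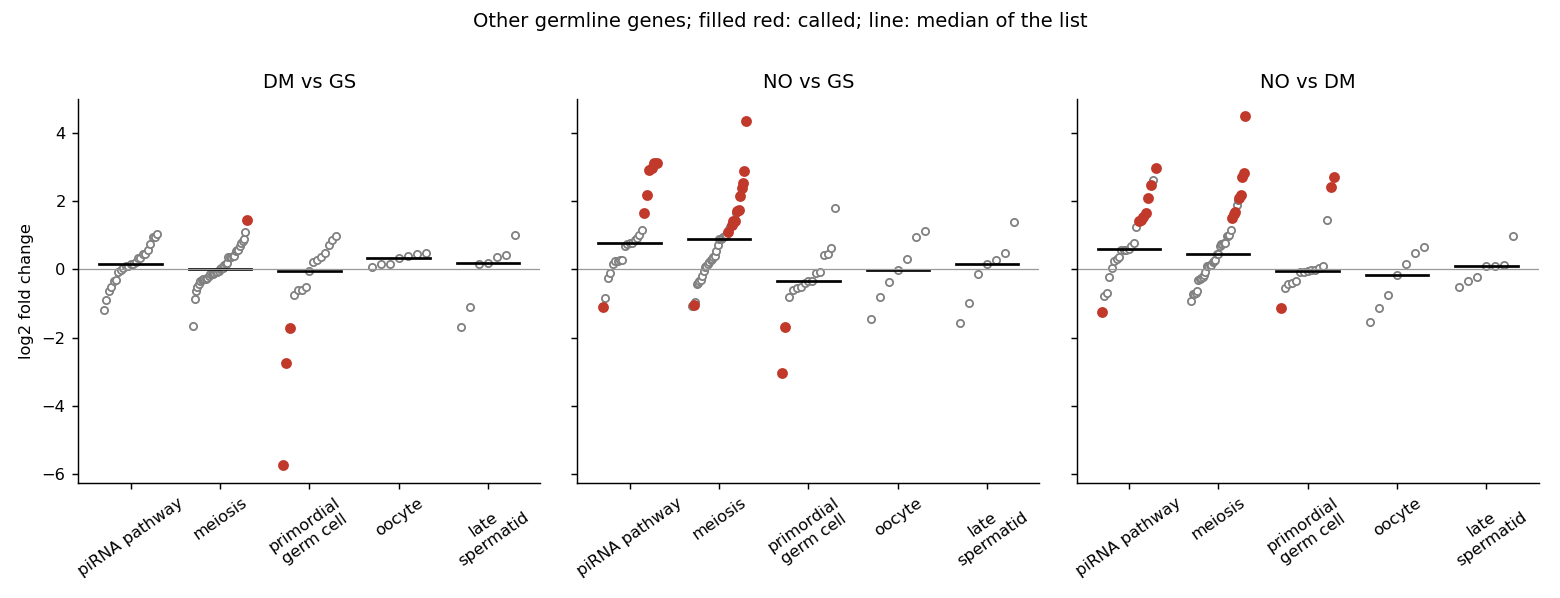
Log2 fold changes of tested germline genes outside the 10 members in 5 lists, for each of the 3 comparisons, with filled red points for called genes and a black line at the median of each list. Red points lie mostly above 0 for the piRNA pathway and meiosis in both comparisons that involve NO, and the oocyte and late spermatid lists hold none. Over all tested genes, 86% of the calls in NO vs GS and 79.3% of those in NO vs DM were higher.

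Genes of the silencing machinery were measured in the same libraries. None of the 13 PRC1.6 subunits was called by limma in any comparison, and 2, 3 and 4 had an unadjusted p under 0.05 for DM vs GS, NO vs GS and NO vs DM in turn. Over all tested genes 10.1% were called higher and 1.64% lower in NO vs GS, so the lack of calls among 13 genes does not set them apart. Cbx1 stood at 3382 to 3493 normalised counts in GS, at 3720 to 4291 in DM, and at 1884 to 2808 in NO, and its log2 fold change in NO vs DM was -0.72 (adjusted p = 0.0128, limma), under the fold threshold. Pcgf6, the subunit that defines the complex, stood at 1055 to 1199 in GS, 845 to 1049 in DM and 618 to 945 in NO (-0.57 in NO vs GS, adjusted p = 0.0315). Without NO replicate 2, the lowest library of both, Cbx1 in NO vs DM gave -0.55 (adjusted p = 0.0224, limma) and Pcgf6 in NO vs GS -0.43 (0.0916). L3mbtl2 stood at 3436 to 4036 in GS, 5171 to 6599 in DM and 4263 to 5090 in NO (0.58 in DM vs GS, adjusted p = 0.0329). Of 15 factors of DNA and histone H3K9 methylation, 2 were called higher in DM vs GS, 2 higher in NO vs GS, and 1 higher and 1 lower in NO vs DM. The shares of all tested genes were 2.94% higher in DM vs GS, 10.1% higher in NO vs GS, and 6.78% higher and 1.77% lower in NO vs DM.

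Dnmt3a, a de novo DNA methyltransferase, was measured at 1146, 1103 and 1009 normalised counts in GS, at 4391, 3872 and 4148 in DM, and at 1859, 1225 and 1328 in NO. It rose in DM vs GS (log2 fold change 1.93, adjusted p = 8.54e-05, limma) and fell in NO vs DM (-1.51, adjusted p = 0.00104), so that DM held all 3 of the highest values. Dnmt3l, its cofactor, rose in DM vs GS (1.72, adjusted p = 9.69e-05) and was lower in NO than in DM by less than the fold threshold (-0.75, adjusted p = 0.00867). Dnmt3c, the male germ cell methyltransferase listed as Gm14490, was at 1 to 9 in GS and DM and at 28, 130 and 42 in NO (3.06 in NO vs DM, adjusted p = 0.0118), and without NO replicate 2 the difference was 2.43 (adjusted p = 0.0391). Dnmt3c passed the minimum mean only through its NO libraries. The part of these factors in the levels of the 10 members was not tested.

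Markers of other cell types and states were measured beside the members. Of 12 listed genes of zygotic genome activation, from the Zscan4, Usp17l and Tcstv families and Zfp352, 11 were tested, and all 11 were called higher in NO than in GS and 6 higher than in DM. Their sum was 59 to 90 normalised counts in the GS libraries, 64 to 92 in DM and 185, 1411 and 421 in NO, the order of the NO libraries seen for Hormad1, Ddx4 and Asz1. Members of these families are near-identical copies. By the study's methods reads that mapped to several places were dropped, so their levels may be understated. Of these genes 9 were tested without NO replicate 2, and 2 were called higher in NO than in GS and 1 higher than in DM. Tcstv1 and Zscan4b, at 0 to 3 in GS and DM, passed the minimum mean only through that library. Usp17ld, at 1 to 8 in GS and DM, passed it only through the NO libraries. The count of 11 of 11 is thus partly set by this filter. Trophoblast markers, of which 10 of 10 were tested, summed to 1650 to 1700 in GS, 1148 to 1299 in DM and 1419 to 3027 in NO, with 3 called lower in DM than in GS, 3 higher and 2 lower in NO than in GS (Cdx2 and Eomes among the latter), and 4 higher in NO than in DM. Markers of somatic gonad cells, 6 of 9 tested, summed to 246 to 321 in GS, 267 to 311 in DM and 290 to 527 in NO, the highest being NO replicate 2, with 1 called higher in DM than in GS, 3 (Wt1, Foxl2 and Dhh) in NO than in GS and 1 in NO than in DM. Without NO replicate 2, Dhh was still called in NO vs GS (2.12, adjusted p = 0.0367, limma) and Wt1 was not (1.79, adjusted p = 0.0503). Foxl2 passed the minimum mean only through that library and was then not tested. Fibroblast markers, 5 of 8 tested, summed to 318 to 496 in GS, a range that held all DM (412 to 447) and all NO libraries (381 to 406), with 1, 2 and 1 called higher in the same order of comparisons. Primitive endoderm markers, 7 of 9 tested, summed to 7931 to 8667 in GS, 3955 to 4989 in DM and 5716 to 6695 in NO. Lama1 alone held 7405 to 8149 in GS, 2732 to 3476 in DM and 2874 to 4372 in NO. The lower sums outside GS follow this gene. Of the 7 tested, 6 had a positive log2 fold change in NO vs GS (median 0.91). Calls were 1 higher and 1 lower in DM than in GS, 2 higher and 1 lower in NO than in GS, and 1 higher in NO than in DM. Without NO replicate 2, NO vs GS had 1 higher and NO vs DM had 0. The part of such cells in the levels of the members was not tested.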

How the data were processed

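Total RNA-Seq of mESC in GS, DM and NO medium (3 replicates each) was analysed, and groups and replicate numbers were taken from the sample labels. Each deposited value is a score, a normalised count of a gene. To make it, the authors depleted ribosomal RNA, aligned the trimmed reads to GRCm38 with STAR, counted reads over exons with featureCounts, divided the counts by DESeq2 size factors and rounded them to whole numbers. Versions in the submitters' processing notes are STAR 2.4.0a, featureCounts 1.4.5-p1 and FastQC 0.11.2. Use of strand is not given in the sources used here. These are not raw counts, and no count model was fitted. A column with the sum over libraries was not used.

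The 18156 genes averaging more than 5 were analysed on the log2(value + 1) scale by limma (version 3.58.1, under R 4.3.3), with all 9 libraries in 1 fit, no covariate, empirical Bayes moderation with a variance trend, and two-sided tests. A gene was called where its adjusted p-value (Benjamini-Hochberg) was below 0.05 and its log2 fold change reached 1 in either direction. The procedure and the estimate of depth, made from the gaps in each library's low values, were tested on simulated data.

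Same-numbered libraries deviated together weakly in NO vs DM (r = 0.16, 0.17 and 0.30 for replicates 1 to 3, from deviations from the group means). This was not so in DM vs GS (-0.18, 0.02 and -0.23) or NO vs GS (-0.05, 0.05 and -0.11). The numbers may therefore pair the NO and DM libraries. The main tests treated all libraries as unpaired, and the replicate block is among the alternatives. The labels do not say what a number stands for.

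All 10 members are named. From each other list the 3 genes that ranked first by adjusted p-value in any comparison are named, with others (the sperm DNA packaging genes and some cell type markers) chosen after their values were seen, and for each member past the F test the 3 protein-coding genes with the highest Pearson r. The members and lists were chosen with earlier results of these data known. Lengths and positions are from GENCODE M21 and promoter windows from RefSeq. Alternatives comprised the replicate block, other minimum means, fold minimums and pseudocounts, no variance trend, other scalings, only the 6 libraries compared, and each replicate left out.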

Additional observations from a re-analysis of the deposited data

How the results depend on the processing

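The calls of Hormad1 in NO vs DM and of Dppa3 in NO vs GS held under all 20 alternatives, and the other 7 calls of members were each lost under at least 2. Members called in DM vs GS (2) numbered 1 with the replicate block, a minimum mean of 50 or quantile normalisation, 0 with no minimum mean, a minimum log2 fold change of 2 or no variance trend, and 0 to 3 with 1 replicate left out. Members called in NO vs GS (4) numbered 1 at a minimum log2 fold change of 2, 2 with quantile normalisation (1 higher and 1 lower, against 3 and 1), and 2 to 5 with 1 replicate left out. Members called in NO vs DM (3) numbered 5 with the replicate block, 2 with quantile normalisation, 1 at a minimum log2 fold change of 2, with no variance trend or with only the 6 libraries compared, and 1 to 5 with 1 replicate left out. Members past the F test (5) numbered 3 with no variance trend and 2 to 7 with 1 replicate left out. In NO vs DM, where the numbers may pair the libraries, the block brought in Asz1 and Dppa3 and changed no other call of a member. In the other comparisons, the block took Mael out in DM vs GS (adjusted p = 0.0742, limma) and brought Asz1 in in NO vs GS (0.0342).

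Other germline genes called in DM vs GS (4) numbered 12 with no minimum fold change and 2 at a minimum log2 fold change of 2. Those in NO vs GS (21) numbered 10 at a minimum mean of 50, 11 at a minimum log2 fold change of 2 and 12 to 35 with 1 replicate left out. Those in NO vs DM (19) numbered 12 with no minimum mean, 11 at a minimum mean of 50, 10 at a minimum log2 fold change of 2 and 10 to 29 with 1 replicate left out. Apart from the scalings, calls over all tested genes were not counted under the alternatives. The counts of members and other germline genes there have no share over all genes beside them.

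Signs turned only for differences that were not called. In DM vs GS these were Sycp3 (-0.0105 with a pseudocount of 0.5, -0.52 to 0.64 with 1 replicate left out), Stk31 and Prdm1 (-0.0238 and -0.0209 with quantile normalisation, -0.10 to 0.11 and -0.14 to 0.18 with 1 replicate left out), Ddx4 (-0.46 to 0.0789) and Asz1 (-0.97 to 0.32). Dazl in NO vs GS gave -0.0897 with quantile normalisation, which moved the median of all genes there to -0.11, and -0.0446 to 0.39 with 1 replicate left out. In NO vs DM, Mael gave -0.0343 with quantile normalisation, and Sycp1 gave 0.0713 with equal totals and -0.19 to 0.15 with 1 replicate left out. The cause was not tested. With 3 libraries per medium, and Asz1 and Sycp3 near the floor of 3 reads, smaller differences were not detectable.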
